A study of Mus musculus with 16 samples.

Results

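The integrins and numbered cadherins of cultured mouse aortic smooth muscle cells were described across 16 arrays. Members were the probe sets whose annotation names exactly 1 gene symbol and whose symbol is an integrin alpha subunit, an integrin beta subunit numbered 1 to 8, or a numbered cadherin. They came to 92 of 45101 probe sets and stood for 44 of 18193 genes, 24 of integrins and 20 of cadherins.

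Integrins are receptors made of an alpha and a beta subunit that span the cell membrane, bind matrix proteins or other cells outside, and hold the actin cytoskeleton inside through focal adhesion proteins. Classical cadherins bind the same kind of molecule on the neighbouring cell and are held to actin by catenins. In the vessel wall both families are known for anchoring smooth muscle cells to their matrix and to each other, and growth factors that make these cells migrate are known to alter which subunits they make.

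RNA was measured on Affymetrix mouse arrays in smooth muscle cells taken by enzymatic digestion from aortas whose outer coat had been removed, cultured on fibronectin to passage 10 to 20, and stained for smooth muscle actin and calponin as a test of purity. The groups were wild type and Hey2 knockout, both of mixed C57BL/6 and 129SvJ background; Hey2 is a transcriptional repressor downstream of Notch. Both genotypes were starved in 0.4% serum for 48 h and then given human PDGF-BB, a mitogen of smooth muscle cells, at 5 ng/ml for 0, 15, 30, 60, 120, 180, 240 or 480 min. There was 1 array per genotype and time, so 8 arrays per genotype. The number of mice or of cell isolates is not given in the labels, and a p-value here rests on how arrays of different times scatter, which can be technical. A difference between the genotypes cannot be told apart here from a difference between the mice or cell isolates used.

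The deposited arrays were not on a common scale, with a trimmed mean signal between 81.0 and 342.5, and all signals given here are after quantile normalization. The libraries labelled wild type 60 min and wild type 480 min were out of step with their labels. Over all genes the first correlated best with knockout 480 min (r = 0.57, against -0.33 with knockout 60 min) and the second with knockout 60 min (r = 0.46, against -0.38 with knockout 480 min), while at the other 6 times the time-matched r lay between 0.38 and 0.52. The Hey2 probe set did not separate the genotypes (14.0 to 113 in wild type, 23.3 to 63.3 in knockout, log2 difference -0.19, SE 0.31, limma adjusted p = 0.698), and whether it lies in the deleted part is not known here. Summed signal of 9 smooth muscle markers was 12537 to 17069 in wild type and 6564 to 9650 in knockout, with 7 of 9 called lower. Summed signal of 11 mesothelial and epithelial markers was 1049 to 2187 in wild type and 13422 to 15604 in knockout, with 9 of 11 called higher and 1 lower. Summed signal of 9 adventitial fibroblast markers overlapped (9419 to 14448 and 10308 to 14143), with 5 of 8 tested called higher and 1 lower; the median signal of Thy1 was 13.9 in wild type and 170.0 in knockout, and that of Lum 1873 and 192. Summed signal of 10 leukocyte markers was 525 to 957 in wild type and 819 to 1416 in knockout, with 2 of 7 tested called higher; Ptprc, Cd3e and Tyrobp were above the signal used as a filter on at most 1 array, while Cd14 and Csf1r were above it on 16. Of 10 endothelial markers (86.8 to 167 and 73.9 to 144), Pecam1, Tie1, Vwf and Sox18 were above it on 0 arrays and Kdr on 16, and 1 of 6 tested was called lower. The part of these marker differences in the genotype differences below was not tested, and in cells measured in bulk, fewer cells of a type and less RNA per cell cannot be told apart.

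The upstream sequences of the genes with the steepest time course (Itga5) and with every knockout array above every wild-type array (Itgb8 and Itga8) are shown so that their promoters can be read beside their values. Each is the 250 bases before the annotated start, 5′ to 3′ on the gene's own minus strand, from RefSeq on build GRCm38.p6. They lie at chr15:103366792-103367041, chr12:119238277-119238526 and chr2:12301945-12302194. Capitals mark matches to the GC box GGGCGG on either strand.
Itga5: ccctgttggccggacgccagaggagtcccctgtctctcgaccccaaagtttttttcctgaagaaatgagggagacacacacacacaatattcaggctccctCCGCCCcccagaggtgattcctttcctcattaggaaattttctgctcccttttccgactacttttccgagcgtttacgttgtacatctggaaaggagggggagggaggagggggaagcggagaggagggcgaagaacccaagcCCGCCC
Itgb8: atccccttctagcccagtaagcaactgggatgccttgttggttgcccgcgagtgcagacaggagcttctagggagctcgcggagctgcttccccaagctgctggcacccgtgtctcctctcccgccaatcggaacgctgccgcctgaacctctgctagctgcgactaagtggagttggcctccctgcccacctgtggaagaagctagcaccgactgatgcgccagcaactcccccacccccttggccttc
Itga8: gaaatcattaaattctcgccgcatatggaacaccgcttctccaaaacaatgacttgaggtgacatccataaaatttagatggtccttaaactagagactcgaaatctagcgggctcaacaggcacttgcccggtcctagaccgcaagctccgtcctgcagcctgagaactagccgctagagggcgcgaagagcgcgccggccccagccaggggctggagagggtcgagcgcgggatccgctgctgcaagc

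Both strands were searched for 4 motifs, the AP-1 site TGACTCA, the CArG box bound by serum response factor, the E box CACGTG bound by basic helix-loop-helix proteins, and the GC box GGGCGG. RefSeq promoters were matched for 28 of the 44 genes, in 32 windows. The Itga5 window held 2 GC boxes and no match to the other motifs, and the Itgb8 and Itga8 windows held no match to any of the 4. The GC box was in 11 of the 32 member windows and in 32.7% of all 32851 windows of this length. The AP-1 site was found among members only at Itgax (4.46% of all windows), the CArG box only at Itgb6 (1.47%) and the E box only at Cdh15 (6.02%). No matches of different motifs overlapped in the member windows. A match is a string of letters and not a measured binding site.

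A probe set was tested when its normalized signal exceeded 16 on at least 3 arrays, which 55 of the 92 member probe sets did, for 34 of the 44 genes. The 10 genes with no tested probe set were Itgae, Itgam, Itgb6, Cdh5, Cdh8, Cdh16, Cdh17, Cdh18, Cdh19 and Cdh20. They include leukocyte and epithelial integrin subunits and Cdh5, the cadherin of endothelial junctions, and their signals on single arrays did not pass 29.7. Of the 34 genes, each represented by its brightest tested probe set, 18 were above 16 on all 16 arrays and 16 on fewer. Differences are of log2(signal + 4.86), which understates the change of dim genes, and a difference is called when its limma adjusted p over all tested probe sets is below 0.05. Each probe set was compared only with itself across arrays.

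Between genotypes, over all 16 arrays with time as a factor, 20 of 55 member probe sets were called (36.4%), where 27.9% of all 26178 tested probe sets were called. Of these, 5 were higher in the knockout (9.09%, against 14.7% of all tested) and 15 lower (27.3%, against 13.2%). Counted by gene, 14 of 34 were called, 5 higher and 9 lower, where 30.2% of all genes were, 16.4% higher and 13.8% lower. These counts include Itgb4 and Cdh10, which passed the filter on arrays of 1 genotype only, so that a difference was built in; of the 51 probe sets that passed otherwise, 18 were called, 4 higher and 14 lower. The median log2 difference was -0.20 over the member probe sets and -0.03 over all tested. Without the 60 and 480 min arrays 28 member probe sets were called, 10 higher and 18 lower, where 36.7% of all tested were. With the scaling as deposited, which moved the median of all tested probe sets to 0.26 and the share of higher among all calls from 52.8% to 87.5%, 8 members were called higher and 2 lower.

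Late against early, that is 120 to 240 min minus 0 to 30 min over both genotypes, 13 of 55 member probe sets were called, 9 higher and 4 lower, where 25.6% of all tested were called, 12.3% higher and 13.4% lower. By gene, Itga5, Itga6, Itga7 and Itgb3 rose and Cdh11 and Cdh26 fell. These were 11.8% and 5.88% of the 34 genes, where 11.1% of all genes rose and 17.3% fell. The median log2 difference was 0.12 over the member probe sets and -0.02 over all tested. Without the 60 and 480 min arrays 25 member probe sets were called, 16 higher and 9 lower, where 41.3% of all tested were. With the deposited scaling 5 were called higher and 0 lower, as the share of higher among all calls went from 47.8% to 81.8%. Within wild type 22 of 55 probe sets were called (32.2% of all tested), 12 higher and 10 lower, where 15.4% and 16.8% of all tested were. Within knockout 9 were called (15.1% of all tested), 4 higher and 5 lower, where 8.08% and 7.06% were. The difference between these responses was called for 1 of 55 member probe sets, that of Itga5, where 0.405% of all tested were called, 0.229% with knockout minus wild type below 0 and 0.176% above 0. By genotype in each window, 13 member probe sets were called early (21.2% of all tested), 4 higher and 9 lower, where 11.1% and 10.1% were. Late, 16 were called (21.5% of all tested), 7 higher and 9 lower, where 11.6% and 9.97% were. Effects of PDGF-BB and of hours in culture cannot be told apart, since no course without PDGF-BB was analysed here.

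**Figure D1:**
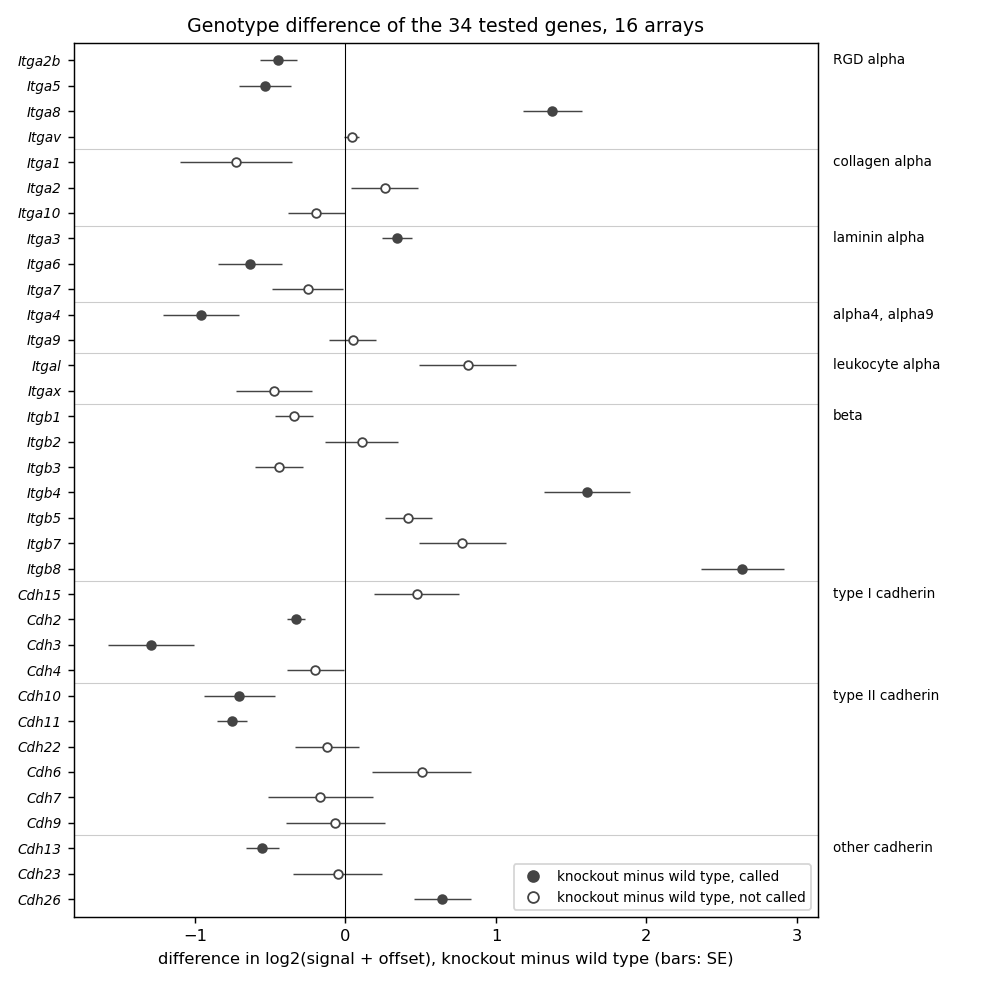
Difference in log2(signal + offset), knockout minus wild type, for the brightest tested probe set of each of the 34 genes, ordered by role (right margin), with bars for the standard error of the fit over 16 arrays. Filled points passed a limma adjusted p of 0.05, those of Itgb4 and Cdh10 after a filter that only 1 genotype passed; Itgb8 (2.64), Itgb4 (1.61) and Itga8 (1.37) lie farthest to the right and Cdh3 (-1.29) farthest to the left.

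Among the alpha subunits that read the RGD sequence of fibronectin and vitronectin, Itga5 rose in both genotypes and rose further in wild type, Itga8 was higher in the knockout, and the brightest Itgav probe set was not called by genotype or time over all arrays. Itga5 encodes the alpha subunit of the fibronectin receptor, whose partner is Itgb1. Its signal in wild type was 182, 166 and 156 at 0, 15 and 30 min, 456 at 60 min, 2359, 1809 and 1679.7 at 120, 180 and 240 min, and 545 at 480 min. In the knockout it was 167, 149 and 171, then 432, then 939, 839 and 768, and 388 at 480 min. The genotypes overlapped up to 60 min, and from 120 to 240 min all 3 wild-type arrays were above all 3 knockout arrays.

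Late minus early, Itga5 rose by 3.48 on the log2 scale in wild type (SE 0.14, 11.2-fold, limma adjusted p = 2.89e-09) and by 2.35 in the knockout (SE 0.14, 5.10-fold, limma adjusted p = 2.58e-07). The difference between these rises was -1.13 (SE 0.20, limma adjusted p = 0.0249). Early, knockout minus wild type was -0.05 (limma adjusted p = 0.847), and late it was -1.18 (SE 0.14, limma adjusted p = 3.32e-05). The difference between the rises kept its sign under every alternative run, from -0.58 to -1.21. It passed the threshold with time as a block (adjusted p = 0.00235) and with a common trimmed mean of the arrays (0.0274). It did not pass with the deposited scaling (-1.21), without the intensity trend (0.116), without the 0, 15, 30 or 180 min arrays (0.153, 0.138, 0.122 and 0.183), with all 16 arrays as labelled (-0.95, adjusted p = 0.862) or as a spline (-0.58, adjusted p = 0.893).

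The probe set behind these Itga5 values has the suffix s_at, which on this platform marks probes shared by several transcripts. Of the other 3 tested Itga5 probe sets, both brighter ones rose in wild type, by 1.01 (limma adjusted p = 0.0197) and 1.48 (0.0235), with 0.50 and 1.03 in the knockout, neither of which passed. Their differences between the rises were -0.51 and -0.44 and did not pass (limma adjusted p = 0.754 and 0.879). The last one was above 16 on 6 arrays. Over all times Itga5 was lower in the knockout by 0.53 (SE 0.17, limma adjusted p = 0.0383), a call lost without the arrays at 120, 180 or 240 min (-0.42, -0.45 and -0.45).

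**Figure D2:**
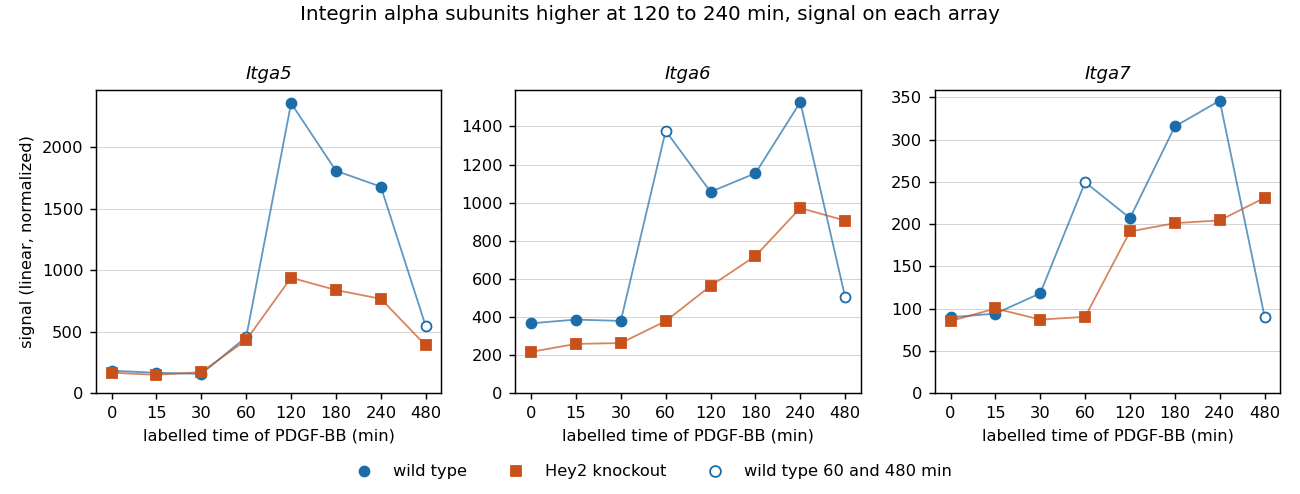
Normalized signal on a linear axis from 0 against labelled time (evenly spaced labels, not to scale) for Itga5, Itga6 and Itga7, 1 array per point, with circles for wild type, squares for Hey2 knockout and open circles for the wild-type 60 and 480 min libraries. Itga5 reaches 2359 in wild type and 939 in the knockout at 120 min, and at 480 min Itga6 and Itga7 are lower in wild type than in the knockout.

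Itga8, whose product pairs with Itgb1 and binds nephronectin, tenascin-C and fibronectin, is a marker of smooth muscle and of other contractile mesenchymal cells. Its wild-type signals were 78.0, 76.7, 70.7, 32.1, 71.6, 48.7, 32.7 and 76.0 in order of time. Its knockout signals were 175, 166, 145, 202, 180.0, 168, 136 and 106. Every knockout array was above every wild-type array, as was the case for 2 of 55 member probe sets, this one and that of Itgb8, and for 4.38% of all tested. The difference was 1.37 (SE 0.20, 2.59-fold, limma adjusted p = 3.58e-04), with 1.06 early and 1.62 late. Without the 60 and 480 min arrays it was 1.34 (limma adjusted p = 1.76e-05), and with the deposited scaling 1.69. Itga8 was thus higher in the cells with the lower summed smooth muscle markers (6564 to 9650 against 12537 to 17069).

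Itgav, the alpha subunit shared by the vitronectin receptors and by the integrins that release latent TGF-beta, varied little on its brightest probe set. There its signal ran from 3919 to 4717 in wild type with a median of 4322, and from 4152 to 4743 in the knockout with a median of 4484. The genotype difference was 0.04 (SE 0.05, limma adjusted p = 0.586) and the time difference 0.12 (SE 0.06, limma adjusted p = 0.166). A dimmer Itgav probe set, between 27.9 and 92.1, rose late by 0.79 (SE 0.16, limma adjusted p = 0.00559), so the probe sets of this gene disagreed in call. Itga2b, the platelet fibrinogen receptor subunit, ran from 115 to 188 in wild type and from 73.9 to 149 in the knockout and was lower in the knockout by 0.45 (SE 0.12, limma adjusted p = 0.0184), a call lost without the 180 min arrays (-0.40, limma adjusted p = 0.0535) and with the deposited scaling (-0.12). Of 4 measured platelet markers, with a summed signal of 82.2 to 106 in wild type and 102 to 181 in the knockout, Ppbp and Gp9 were above the filter on at most 1 array, Pf4 on 15 and Gp1bb on 16, and 1 was called higher in the knockout. Their part in the Itga2b difference was not tested.

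Among the collagen receptor alpha subunits, 0 of 3 tested genes were called by genotype in the limma fit over 16 arrays (0 at an unadjusted p below 0.05), and Itga1 was called on the 12 arrays of the early and late windows. Itga1 is the alpha subunit of the main collagen IV receptor of smooth muscle. Its signal ran from 37.5 to 268 in wild type with a median of 215, and from 28.3 to 155 in the knockout with a median of 118. The lowest values were wild type 60 min at 37.5 and knockout 480 min at 28.3. Over all arrays the genotype difference was -0.73 (SE 0.37, limma adjusted p = 0.175). It was -1.11 without both 60 min arrays (limma adjusted p = 0.00468), -0.41 without both 480 min arrays (0.331) and -0.80 without all 4 (7.21e-05). In the windows, Itga1 was lower in the knockout by 0.90 early (SE 0.18, limma adjusted p = 0.00203) and 0.70 late (SE 0.18, 0.0105). It fell with time by 0.80 in wild type (limma adjusted p = 0.00291) and by 0.61 in the knockout (0.0313). Itga2, another collagen receptor subunit, rose in wild type by 0.92 (SE 0.30, limma adjusted p = 0.0307) with 0.59 in the knockout. Its signals on the 12 arrays compared ran from 8.09 to 37.8, and the highest of all was 58.5 at wild type 60 min. Itga10, found mainly in cartilage, stayed between 21.0 and 62.3 and was not called in any comparison.

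Of the 3 laminin receptor alpha subunits, 2 rose with time in both genotypes. Of all genes, 11.1% rose late in the fit over both genotypes. Itga6 encodes the alpha subunit that pairs with Itgb1 or Itgb4 to bind laminins of the basement membrane. In wild type its signal was 367, 386 and 379 at 0 to 30 min, 1377 at 60 min, 1057, 1154 and 1528 at 120 to 240 min, and 504 at 480 min. In the knockout it was 217, 259 and 263, then 378, then 563, 720.1 and 972, and 906 at 480 min. Wild type was the higher at 7 of 8 times, the exception being 480 min, and late arrays did not overlap early ones in either genotype.

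Itga6 rose late by 1.63 (SE 0.25, 3.09-fold, limma adjusted p = 0.00117), by 1.69 in wild type and 1.56 in the knockout. The difference between the rises was -0.13 (SE 0.26, limma adjusted p = 0.912). It was lower in the knockout by 0.61 early and 0.74 late (limma adjusted p = 0.0257 and 0.00872), and over all times by 0.63 (SE 0.21, limma adjusted p = 0.0453). That last call was lost in 11 of the alternatives, and without the 60 and 480 min arrays it was -0.68 (limma adjusted p = 3.16e-05). A second, dimmer Itga6 probe set gave the same directions, with 2.16 for time (SE 0.33, limma adjusted p = 0.00118) and -1.45 for genotype (SE 0.28, limma adjusted p = 0.00283).

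Itga7 encodes the laminin receptor subunit of skeletal and smooth muscle. Its wild-type signal was 89.8, 94.1 and 118 at 0 to 30 min, 249.5 at 60 min, 207, 315 and 346 at 120 to 240 min, and 90.4 at 480 min. Its knockout signal was 85.2, 100.1 and 87.0, then 90.2, then 191, 201 and 204, and 231 at 480 min. The wild-type 480 min library was at the level of the early arrays and the wild-type 60 min library at that of the late ones. Itga7 rose late by 1.28 (SE 0.27, 2.42-fold, limma adjusted p = 0.00638), by 1.46 in wild type and 1.09 in the knockout, and the difference between these was -0.36 (limma adjusted p = 0.708). The genotype difference was -0.25 (SE 0.23, limma adjusted p = 0.469). The time differences of Itga5, Itga6 and Itga7 leave out the 60 and 480 min arrays by construction. Those arrays still entered the residual spread of the fit, and so the SE and p-values. The differences passed the threshold under every alternative run, the deposited scaling included (3.18, 1.94 and 1.45).

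Itga3, a laminin receptor subunit of epithelia and of many cultured cells, was the member of this group that was higher in the knockout, by 0.34 (SE 0.10, limma adjusted p = 0.0261). Its signal ran from 469 to 909 in wild type and from 663 to 967 in the knockout, with the knockout higher at 8 of 8 times. The call was lost without the 0, 15 or 30 min arrays (0.34, 0.31 and 0.35), without time as a factor, and with the deposited scaling (0.66). A second Itga3 probe set, between 113 and 284, gave 0.35 (limma adjusted p = 0.09), and the last, a dim one, gave -0.59 (limma adjusted p = 0.163). With time, the brightest Itga3 probe set rose in wild type by 0.43 (SE 0.15, limma adjusted p = 0.0413). In the knockout it differed by 0.12, which did not pass (limma adjusted p = 0.669). The difference between these was -0.31 and did not pass (limma adjusted p = 0.685).

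The remaining alpha subunits were dim. Itga4, which binds VCAM1 and fibronectin, ran from 12.2 to 37.6 in wild type and from 4.60 to 19.9 in the knockout and was lower there by 0.96 (SE 0.25, limma adjusted p = 0.0147). Its knockout arrays were above 16 at 2 of 8 times, so the size depends on the offset. Itga9, a tenascin and osteopontin receptor subunit of smooth muscle, ran from 16.5 to 42.8 and differed by 0.05 (SE 0.16). The leukocyte subunits Itgal and Itgax, with highest signals of 31.0 and 28.4, were not called in any comparison.

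Among the beta subunits, Itgb8 was higher in the knockout, Itgb3 rose with time, and the probe sets of Itgb1 and Itgb5 moved in opposite directions with time. Itgb8 pairs only with Itgav in an integrin that releases active TGF-beta from its latent complex. Its wild-type signals were 80.5, 66.0, 49.4, 20.2, 46.2, 36.7, 28.8 and 77.2 in order of time. Its knockout signals were 367, 275, 289, 273, 507, 443, 367 and 146. No knockout array came down to a wild-type array, and the nearest were knockout 480 min at 146 and wild type 0 min at 80.5.

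The Itgb8 difference was 2.64 (SE 0.28, 6.23-fold, limma adjusted p = 3.78e-05), the largest among the members. It was 2.18 early (SE 0.21) and 3.41 late (SE 0.21, 10.6-fold, limma adjusted p = 5.09e-08). Without the 60 and 480 min arrays it was 2.79 (limma adjusted p = 7.63e-07). With time, Itgb8 fell by 0.73 in wild type (SE 0.21, limma adjusted p = 0.0155). In the knockout it rose by 0.49, which did not pass (SE 0.21, limma adjusted p = 0.136). The difference between these was 1.23 (SE 0.30) and did not pass (limma adjusted p = 0.11). It passed with time as a block (limma adjusted p = 0.00977), was 0.27 with all 16 arrays as labelled, and was -0.02 as a spline.

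Itgb4, which pairs with Itga6 in the hemidesmosomes of epithelia, was dim in both genotypes. Its wild-type signals were 1.58, 5.49, 7.53, 4.94, 13.4, 4.04, 3.64 and 14.1, none above the filter of 16. Its knockout signals were 41.5, 14.0, 31.9, 36.0, 18.5, 33.6, 35.7 and 27.6. The knockout was the higher at 8 of 8 times, and the ranges overlapped only in that knockout 15 min (14.0) lay below wild type 480 min (14.1). The difference was 1.61 (SE 0.28), and 1.67 without the 60 and 480 min arrays. With the offset divided or multiplied by 3 it was 2.01 or 1.05, so its size follows the offset. The probe set entered the tests through 7 knockout arrays alone, and for a gene that enters that way a difference between the genotypes is built in, so no test is given. Itgb8 was higher in the cells whose summed mesothelial and epithelial markers ran from 13422 to 15604 against 1049 to 2187, and the part of those markers was not tested.

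**Figure D3:**
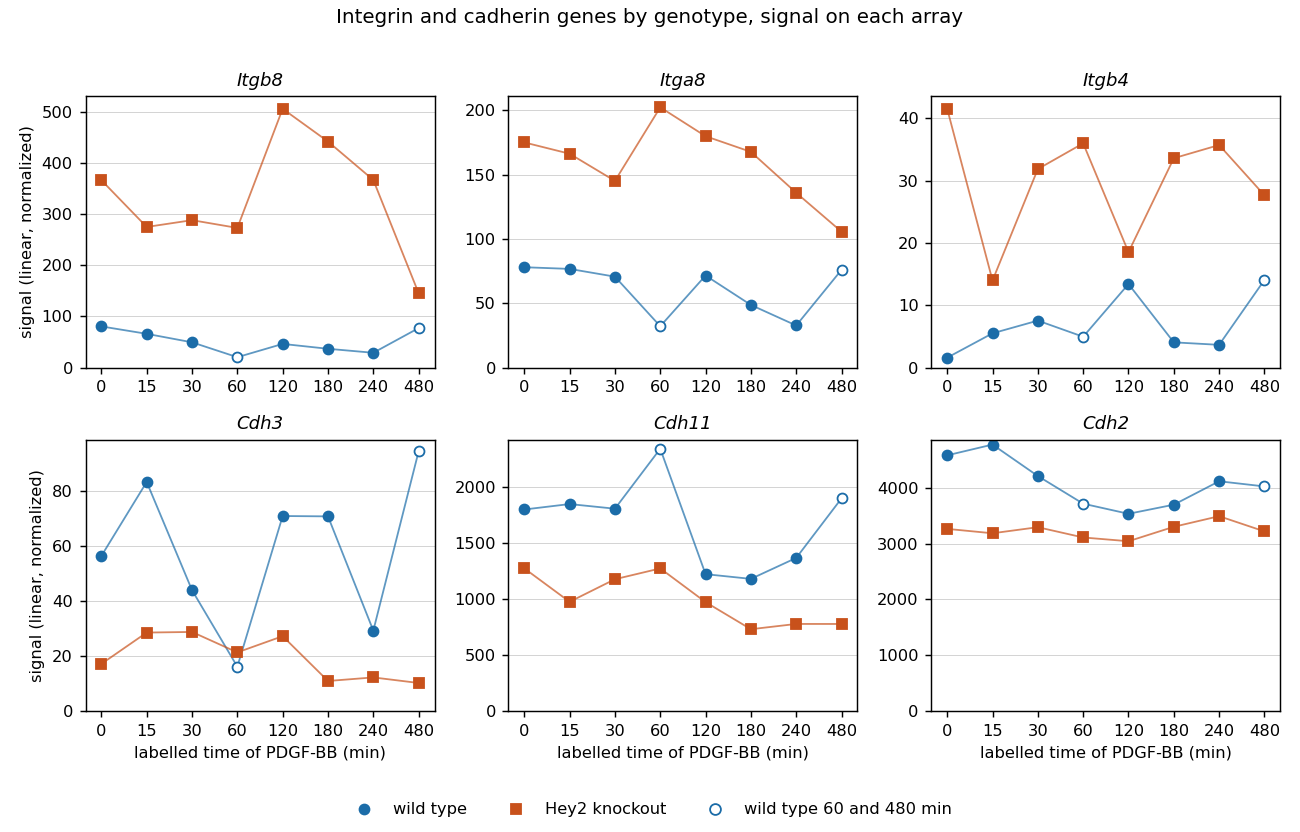
Normalized signal on a linear axis from 0 against labelled time (evenly spaced labels, not to scale) for 6 genes by genotype, 1 array per point, with circles for wild type, squares for Hey2 knockout and open circles for the wild-type 60 and 480 min libraries. For Itgb8 and Itga8 every square lies above every circle, for Cdh2 every square lies below every circle, and for Cdh3 the wild-type 60 min library (16.1) lies below the knockout one (21.3).

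Itgb1, the common partner of the matrix-binding alpha subunits, ran from 1046 to 2107 in wild type with a median of 1461 and from 771 to 1491 in the knockout with a median of 1183. Its brightest probe set differed by -0.34 between genotypes (SE 0.13, limma adjusted p = 0.0647) and by 0.39 with time (SE 0.15, limma adjusted p = 0.0691), neither of which passed. In wild type alone it rose by 0.48 (limma adjusted p = 0.0364), and without the 60 and 480 min arrays it was lower in the knockout by 0.33 (limma adjusted p = 0.0325). Of the 4 other tested Itgb1 probe sets, 3 rose with time, by 0.68, 0.59 and 0.37, and 2 were lower in the knockout, by 0.48 and 0.32. One of the latter turned to 0.0336 with the deposited scaling. The rises of 0.68 and 0.59 came from dimmer probe sets with the suffix x_at, at 17.8 to 55.1 and 34.3 to 137. The second of these also gave the genotype difference of 0.48.

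Itgb3, the beta subunit of the vitronectin receptor known in migrating smooth muscle, rose late by 0.67 (SE 0.18, 1.59-fold, limma adjusted p = 0.0211). Its signal ran from 85.2 to 299 in wild type and from 78.8 to 199 in the knockout. The call was lost without the arrays at 30, 180 or 240 min (0.48, 0.49 and 0.51) and with the deposited scaling (0.84). Between genotypes it differed by -0.44 (SE 0.16, limma adjusted p = 0.0606), and by -0.52 without the 60 and 480 min arrays (limma adjusted p = 0.0185).

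Itgb5, another partner of Itgav, ran from 1165 to 3852 in wild type and from 2306 to 3959 in the knockout. Of its 4 tested probe sets, 2 fell with time over both genotypes, by 0.65 and 0.61, and all 4 fell in wild type, by 0.55 to 0.82. The brightest one, which has the suffix x_at, gave -0.46 over both genotypes (SE 0.18, limma adjusted p = 0.0838). Late, 3 of the 4 were higher in the knockout, by 0.40, 0.44 and 0.57. None of the falls passed the threshold with the deposited scaling. The leukocyte subunits Itgb2 and Itgb7 were dim, with highest signals of 34.6 and 51.8. Itgb7 differed by 0.78 (SE 0.29, limma adjusted p = 0.0648), and by 1.05 without the 60 and 480 min arrays (limma adjusted p = 0.0179).

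**Figure D4:**
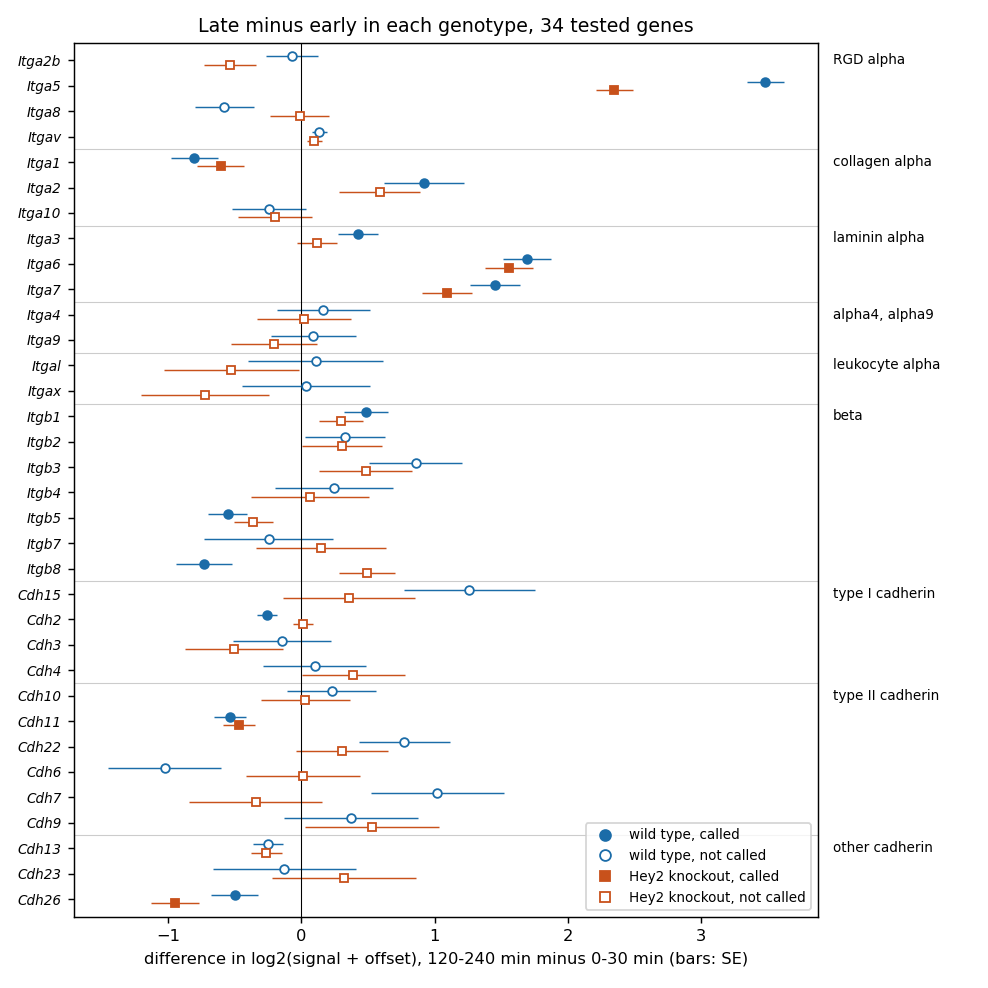
Difference in log2(signal + offset), mean of 120 to 240 min minus mean of 0 to 30 min, in wild type (circles) and Hey2 knockout (squares) for the brightest tested probe set of each of the 34 genes, ordered by role, with bars for the standard error of the fit over 12 arrays. Filled symbols passed a limma adjusted p of 0.05; Itga5 lies at 3.48 in wild type and 2.35 in the knockout, and no other gene passed in the test between the genotypes.

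Of the 13 tested cadherin genes, 5 were lower in the knockout and 1 was higher, and with time 0 rose and 2 fell by limma (1 and 2 at an unadjusted p below 0.05). Of all genes 13.8% were lower and 16.4% higher by genotype, and with time 11.1% rose and 17.3% fell, so the 2 that fell are near the background. Of the 11 cadherin genes that did not pass the filter through 1 genotype only, 4 were lower and 1 higher. The lower genes included Cdh2, Cdh11 and Cdh13, the cadherins known in smooth muscle. With the deposited scaling none of these 3 differences passed, and that of Cdh2 became 0.00547 from -0.33. The direction for Cdh11 (-0.41) and Cdh13 (-0.22) stayed negative under that scaling, and both lay below its median of 0.26 over all tested probe sets.

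Cdh2, N-cadherin, is the main classical cadherin of smooth muscle. Its brightest probe set ran from 3535 to 4777 in wild type with a median of 4072, and from 3043 to 3492 in the knockout with a median of 3242. All 8 knockout arrays were below all 8 wild-type arrays on both Cdh2 probe sets, which were the only 2 of 55 member probe sets with that order, found for 2.71% of all tested. The difference was -0.33 (SE 0.06, limma adjusted p = 0.00155), with -0.48 early (limma adjusted p = 4.02e-04) and -0.21 late (0.0673). In wild type Cdh2 fell by 0.26 late (limma adjusted p = 0.0166), a fall that turned to 0.0251 with the deposited scaling. In the knockout it differed by 0.01. The difference between these was 0.27 (SE 0.11) and did not pass (limma adjusted p = 0.393). On the dimmer Cdh2 probe set that difference was 0.41 and did not pass (limma adjusted p = 0.263).

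Cdh3, P-cadherin, is a classical cadherin of basal epithelial cells. Its wild-type signals were 56.5, 83.4, 44.0, 16.1, 71.0, 70.9, 29.2 and 94.6 in order of time. Its knockout signals were 17.1, 28.5, 28.8, 21.3, 27.2, 10.9, 12.2 and 10.2. Wild type was the higher at 7 of 8 times, the exception being the 60 min library, and apart from that library all wild-type arrays were above all knockout arrays. The difference was -1.29 (SE 0.29, 2.45-fold, limma adjusted p = 0.00591), and -1.32 without the 60 and 480 min arrays (limma adjusted p = 4.51e-04). It passed under every alternative run, with -1.02 under the deposited scaling. A dimmer Cdh3 probe set gave -0.61 and did not pass (limma adjusted p = 0.239). Cdh3 was thus lower in the cells with the higher summed mesothelial and epithelial markers. Cdh4 and Cdh15, the retinal and muscle cadherins, had highest signals of 24.8 and 32.9 on their tested probe sets and were not called.

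Cdh11, the type II cadherin of mesenchymal cells, was lower in the knockout and fell with time in both genotypes. It ran from 1181 to 2345 in wild type with a median of 1805, and from 730.5 to 1275 in the knockout with a median of 974. The genotype difference was -0.75 (SE 0.10, 1.69-fold, limma adjusted p = 1.97e-04), and a second probe set gave -0.43 (limma adjusted p = 0.0124). Late minus early it fell by 0.50 (SE 0.11, limma adjusted p = 0.00905), by 0.53 in wild type and 0.47 in the knockout. The knockout was lower at 8 of 8 times, while the late wild-type arrays (1181 to 1368) overlapped the early knockout ones (976 to 1275). The fall over both genotypes missed the threshold without the 180 min arrays (-0.44, limma adjusted p = 0.0519).

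The other type II cadherins were dim. Cdh10 had signals of at most 27.6 on its tested probe set, which entered the tests through 6 wild-type arrays alone, so its lower knockout value (-0.71) is built in and is given without a test. Cdh6, a cadherin of kidney and neural crest, was higher in the knockout late by 1.35 (SE 0.43, limma adjusted p = 0.0347), and was not called over all times (0.51). Its late signals were 12.8, 1.96 and 2.04 in wild type and 16.2, 25.8 and 16.7 in the knockout. No late wild-type array was above 16, so the size depends on the offset. Cdh7, Cdh9 and Cdh22 were not called, with highest signals of 28.7, 20.2 and 33.2 on their tested probe sets.

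Cdh13, T-cadherin, is held in the membrane by a lipid anchor and is abundant in vascular smooth muscle. It ran from 1329 to 2567 in wild type with a median of 2126 and from 1012 to 1666 in the knockout with a median of 1354, the knockout being lower at 7 of 8 times. The difference was -0.55 (SE 0.11, 1.47-fold, limma adjusted p = 0.00313), with -0.59 early and -0.60 late. A second probe set gave -0.59 (limma adjusted p = 0.0161) and a dim one -0.20 (0.394). Cdh26, a cadherin of epithelia, was the only cadherin gene higher in the knockout, by 0.64 (SE 0.19, limma adjusted p = 0.0261), from 35.9 to 107 in wild type and 62.3 to 162 in the knockout. Without the 0, 15 or 30 min arrays that call was lost (0.65, 0.58 and 0.62). It fell late by 0.73 (SE 0.22, limma adjusted p = 0.0321), and this call was lost without the arrays of any 1 of the times 0, 15, 30, 120, 180 and 240 min (-0.66 to -0.83). Cdh23, a cadherin of hair cells, was at most 19.4 on its tested probe set and was not called.

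The proteins that integrins and cadherins hold on to were read from 3 lists, with each gene at its brightest probe set. Of 24 tested focal adhesion linkers, 10 were lower in the knockout and 1 was higher, where 13.8% and 16.4% of all genes were, and with time 9 rose and 3 fell (11.1% and 17.3%). The median difference by genotype was -0.19, against -0.02 over all genes. Tgfb1i1, a paxillin-like adaptor of smooth muscle, was lower by 1.15 and rose late by 0.79. Fermt2, the kindlin that activates integrins, was lower by 0.41 and rose late by 0.79. Vcl, vinculin, was lower by 0.30 and rose late by 0.41, and Vasp, an actin-filament elongator, rose late by 1.08. Itgb1bp1, which competes with activators for the Itgb1 tail, was the linker higher in the knockout, by 0.46. Bcar1, an adaptor that signals from stretched adhesions, was the 1 linker whose rise differed between the genotypes by the test of the difference, 1.51 in wild type and 0.43 in the knockout (-1.07, SE 0.18, limma adjusted p = 0.0221), where 0.545% of genes were called. The Bcar1 probe set has the suffix s_at, like that of Itga5. In this test of the difference, no tested probe set was called with the deposited scaling or without the intensity trend. The same held without the 15 min arrays, with all 16 arrays as labelled and as a spline, so the Bcar1 call was lost there. Without the 180 min arrays 1 tested probe set was called, with a difference above 0, so the Bcar1 call was lost there too. With the deposited scaling 1 linker was lower in the knockout and 0 higher, and 5 rose with time.

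Of 11 catenins and cadherin partners, 2 were higher in the knockout and 0 lower by limma (2 and 2 at an unadjusted p below 0.05), and with time 0 rose and 2 fell (0 and 3). Of all genes 16.4% were called higher by genotype and 17.3% lower with time, so 2 of 11 is near the background in both. Plekha7, a protein of the zonula adherens, was higher by 1.30 (SE 0.27, limma adjusted p = 0.00433) and fell late by 1.03. Jup, plakoglobin, which serves adherens junctions and desmosomes, was higher by 0.67 (SE 0.21, limma adjusted p = 0.0321). Arvcf, a relative of p120 catenin, fell late by 0.82. The median difference by genotype was 0.01, against -0.02 over all genes. The falls with time numbered 5 without the 60 and 480 min arrays and 0 with the deposited scaling. Of all tested probe sets, 41.3% were called by time without those arrays, against 25.6% with them, and 46.6% of the 41.3% were higher. With the deposited scaling 1966 of 26625 were called by time, 81.8% of them higher.

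Of 21 tested integrin ligands, 8 were lower in the knockout and 1 was higher, where 13.8% and 16.4% of all genes were. At an unadjusted limma p below 0.05, 8 were lower and 4 higher. The median difference by genotype was 0.02, against -0.02 over all genes. Tnc, tenascin-C, a matrix protein bound by Itga8 and Itga9 integrins, was lower by 2.55 (SE 0.13, limma adjusted p = 9.76e-08). Col3a1, a fibrillar collagen chain, was the ligand that was higher, by 2.42 (SE 0.26, limma adjusted p = 3.94e-05). Icam1, the ligand of leukocyte integrins, was lower by 1.24, and Lama3, a laminin chain of epithelia, by 1.72 from a dim signal. With time 4 ligands rose and 3 fell, where 11.1% and 17.3% of all genes did. Lamc1, Col4a1 and Col4a2, chains of basement membrane laminin and collagen, rose late by 1.10, 1.34 and 0.90. The rise of Col4a1 differed between the genotypes, 1.74 in wild type and 0.94 in the knockout (-0.80, SE 0.13, limma adjusted p = 0.0221), where 0.545% of genes were called. As for Bcar1, this call was lost in the settings where no tested probe set was called and without the 180 min arrays. With the deposited scaling 3 ligands were lower and 3 higher by genotype.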

How the data were processed

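The deposited values were linear signal intensities, 1 per probe set and array, from MAS5 according to the submitters' processing notes. Which version and which target intensity were used is not given in the sources used. Gene names came from the platform annotation, and all 92 member probe sets matched RefSeq genes of GRCm38.p6 by gene identifier with 0 symbols changed. The rule leaves out 1 numbered cadherin, which is not analysed here. Members, gene lists and tests were chosen with earlier results of these data known.

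The 16 arrays were quantile normalized and transformed as log2(signal + 4.86); the offset equals percentile 20 of all values. Tested probe sets had signals above 16 (percentile 40) on at least 3 arrays, which 37 member probe sets did not. Fits used limma 3.58.1 in R 4.3.3 on 26178 probe sets with 1 gene symbol, with a trend on mean intensity, and p-values were adjusted over all of them by Benjamini-Hochberg. Genotype and time over both genotypes came from 16 arrays with time as a factor plus genotype (7 residual degrees of freedom). Windows and their interaction came from 4 cell means over 12 arrays, 3 per genotype and window (8 residual degrees of freedom), so trends within a window enter the error. The scripts were tested on simulated data.

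Values on all arrays are printed for genes whose brightest tested probe set was called with an absolute log2 difference of at least 1 by genotype or by time, or in the interaction. Of each other list, up to 4 genes with the smallest p are named per comparison. Plekha7 and Jup are both genes called higher of their list. Alternatives covered scaling, offset, filter, probe set choice, intensity trend, each time left out, the time factor, the baseline and the form of the interaction. With 1 array per genotype and time and no isolates named in the labels, the spread between mice or cell isolates was not measured. A p-value by genotype therefore does not cover that spread. The number of arrays also limits precision.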

Additional observations from a re-analysis of the deposited data

Results flagged for a closer look

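The late minus early rise of Itga5 differed between the genotypes by the test of that difference itself, -1.13 on the log2 scale for knockout minus wild type (SE 0.20, limma adjusted p = 0.0249). Late signals were 1679.7 to 2359 on 3 wild-type arrays and 768 to 939 on 3 knockout arrays, and early signals were 149 to 182 over both genotypes. The other tested Itga5 probe sets gave -0.51, -0.51 and -0.44 and did not pass. Groups of 1 array per genotype and time allow no test for single arrays that stand apart from their own group.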

How the results depend on the processing

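Single differences of member probe sets, 94 in all, were recomputed 1414 times; 1137 values kept their direction and their side of the threshold, 274 kept their direction but lost the call, and 3 changed sign. Those 3 arose with the scaling as deposited: Cdh2 by genotype (0.00547) and in wild type with time (0.0251), and a second Itgb1 probe set by genotype (0.0336). With the filter at 8 arrays Itgb4 and Cdh10 gave no value, and with 1 probe set per gene the dimmer probe sets gave none.

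With the deposited scaling, calls by genotype went from 5 to 8 higher and from 15 to 2 lower, and by time from 9 to 5 higher and from 4 to 0 lower. Early lower calls went from 9 to 0, late ones from 7 to 4 higher and from 9 to 0 lower, wild-type ones from 12 to 5 higher and from 10 to 0 lower, and knockout lower ones from 5 to 0. The median of all tested probe sets by time moved from -0.02 to 0.17, and to -0.11 with arrays scaled to one trimmed mean; the share of higher among all time calls moved from 47.8% to 81.8% and 38.7%. Counting genes by their brightest probe set gave 9 lower by genotype, 4 higher and 2 lower by time, 6 higher and 6 lower in wild type and 3 lower in knockout. Without the 60 and 480 min arrays there were 10 higher by genotype and 16 higher and 9 lower by time, and against 0 min alone 4 higher and 1 lower. Without the intensity trend 3 were lower in knockout. The interaction called 1 higher with time as a block, and its 1 lower call became 0 with the deposited scaling, without the trend, with 16 arrays as labelled and as a spline.

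Leaving out each time point in turn gave 3 to 9 higher and 9 to 16 lower by genotype, 5 to 14 higher and 1 to 7 lower by time, 3 to 5 higher and 6 to 9 lower early, 2 to 8 higher and 5 to 12 lower late, 6 to 10 higher and 6 to 14 lower in wild type, 4 to 5 higher and 2 to 7 lower in knockout, and 0 to 1 lower in the interaction. The 9 lower by genotype and the 2 higher late came without the 180 min arrays, and the 14 higher by time without the 480 min arrays. Calls among all tested probe sets moved the same way. Without the 180 min arrays they went from 7308 to 5854 by genotype and from 5636 to 2977 late. Without the 480 min arrays they went from 6714 to 8152 by time. The cause of these changes was not tested. Signals near 16 limit what can be said of 16 of the 34 genes.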
